A study of Rattus norvegicus with 48 samples.

Results

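MicroRNA levels in the ventral striatum of adolescent rats were compared between socially enriched and non-enriched housing, pooled over prenatal treatment. All 24 ventral striatum libraries of the series entered, out of 48 libraries in all, with 12 from socially enriched and 12 from non-enriched rats; the other 24 libraries came from the amygdala. The animals were Long Evans rats of both sexes at postnatal day 42, born to dams injected intraperitoneally with ethanol or with saline on gestational day 12. The housing began at weaning and differed in who shared the cage. Non-enriched rats kept the company of siblings, and socially enriched rats were placed among strangers matched for age and sex and born to untreated dams, with 2 or 3 companions in either case. Each housing held 3 libraries of every combination of sex and prenatal treatment (female saline, female ethanol, male saline, male ethanol). All of the rats had been through a test of social interaction and were anesthetized with ketamine and xylazine before the tissue was taken. A library was made from RNA pooled from 3 rats, so the spread between libraries is a spread between pools and not between single animals, and litters and cages within a pool cannot be told apart. The question was whether housing changed the miRNA profile of a region of the basal ganglia that serves reward and social motivation.

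MicroRNAs are short RNAs cut from hairpin precursors. A primary transcript is trimmed to the hairpin in the nucleus, the hairpin is cut to a duplex in the cytoplasm, and the strand from its 5p or its 3p arm is loaded into an Argonaute protein, where bases 2 to 8, the seed, pair with sites in messenger RNAs and lower their translation or stability. Names written mir below are precursors and names written miR are mature strands. Because the same reads can be counted toward a precursor and toward its mature strand, values of both forms of a hairpin are not separate evidence.

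Mature sequences from hairpins described below are given here so that their seeds and their genomic clusters can be followed through the results. They are the rat RefSeq sequences (GRCr8), in which 563 of the 612 mature names of the deposited table found a match, and capitals mark the seed. The first group had lower estimates after enrichment.
miR-148a-3p: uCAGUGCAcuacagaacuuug
miR-148a-5p: aAAGUUCUgagacacucugacuc
miR-409b: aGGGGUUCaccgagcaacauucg
miR-487b-3p: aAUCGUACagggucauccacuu
miR-98-5p: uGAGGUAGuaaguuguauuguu
let-7d-5p: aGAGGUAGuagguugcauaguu
miR-101a-5p: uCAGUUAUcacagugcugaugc
miR-540-3p: aGGUCAGAggucgauccugggc
The second group had higher estimates after enrichment, and of these only miR-540-5p had an unadjusted p under 0.05 (limma).
miR-540-5p: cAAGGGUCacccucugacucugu
miR-27a-3p: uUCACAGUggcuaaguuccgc
miR-23a-3p: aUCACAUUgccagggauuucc
miR-31a-5p: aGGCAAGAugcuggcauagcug
miR-490-3p: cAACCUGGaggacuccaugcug
miR-873-3p: gAGACUGAcaaguucccggga
miR-140-5p: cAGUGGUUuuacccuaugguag
Both arms of miR-540 are shown because their estimates had opposite directions. miR-98-5p and let-7d-5p carry the same seed, and no other pair among these sequences does. miR-151-3p and miR-1224 are also described.

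The libraries looked like brain tissue. miR-181a-5p, which is abundant in striatum, was the highest mature miRNA, with between 123914 and 217165 RPM and a median of 172145 RPM over the 24 libraries. RPM are read numbers that the authors scaled to one fixed total for mature and one for precursor names. The neuronal miR-9a-5p ranked in position 6 with a mean of 31431 RPM, and miR-124-3p averaged 2201 RPM. The liver miRNA miR-122-5p lay between 0 and 3.05 RPM. The libraries held between 739467 and 1370420 mature reads as estimated from the smallest step between values, so that 1 read was worth between 0.730 and 1.35 RPM of a mature name. Mean depth was 1051200 reads (SD 188271) in enriched and 1055770 (SD 138920) in non-enriched libraries (exact permutation test within sex and prenatal group, two-sided, p = 0.945, n = 12 and 12). Over all tested names the lowest median correlation of a library with the others was 0.978. In some groups of marker miRNAs single libraries did stand far from the rest, as given below.

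No miRNA passed the test for an effect of social enrichment. Of 933 names tested on log2(RPM + 1) with limma, 41 had an unadjusted p under 0.05, which is 4.39% of all, and 0 had a Benjamini-Hochberg adjusted p under 0.05. The smallest adjusted p was 1. Of the 41 names, 16 (1.71% of all tested) had higher and 25 (2.68%) had lower estimates after enrichment. An exact permutation test of mean RPM, with the housing labels permuted within the 4 combinations of sex and prenatal treatment, gave 39 names under 0.05, a smallest p of 0.00675 and a smallest adjusted p of 1, although its 160000 arrangements allow a p down to 1.25e-05. In 0 names did the ranges of the 2 housings fail to overlap, and 0 names had an estimate of 2-fold or more in either direction.

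**Figure D1:**
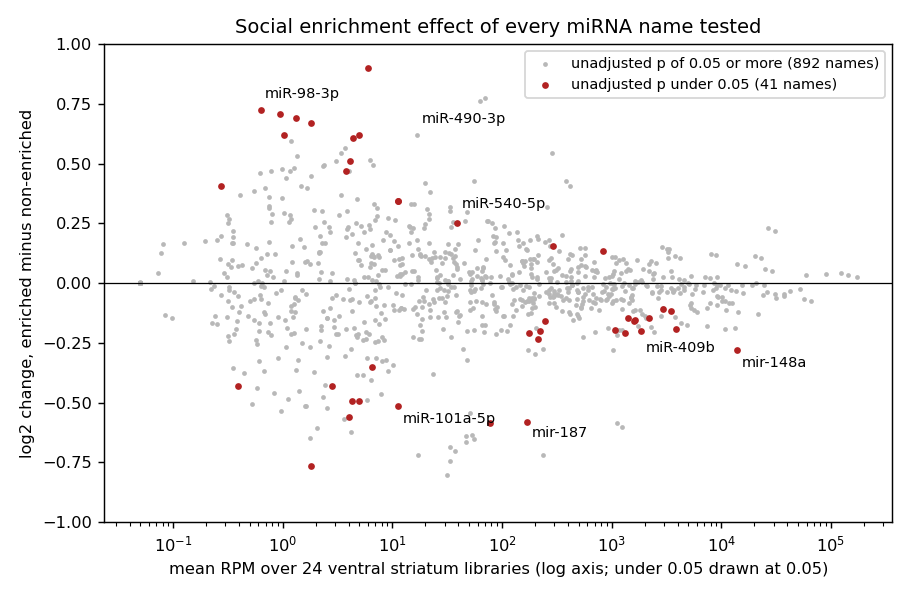
Each point is 1 of 933 miRNA names, with its mean RPM over the 24 ventral striatum libraries on a log axis and its log2 change (enriched minus non-enriched, on the log2(RPM + 1) scale) on the vertical axis. The 41 red points had an unadjusted p under 0.05 and lie within the same funnel as the 892 gray points, with the estimates drawing closer to 0 as the level rises.

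The estimates were narrow for abundant miRNAs. Among the 184 names with a mean of at least 1000 RPM, the 95% confidence interval of the change reached a median of 0.20 on the log2 scale to either side, and in 176 of them (95.7%) the whole interval lay inside a 1.5-fold change up or down. The same was true of 178 of 202 names between 100 and 1000 RPM (88.1%), of 146 of 210 names between 10 and 100 RPM (69.5%) and of 105 of 337 names under 10 RPM (31.2%). For most of the abundant miRNAs a change of 1.5-fold was therefore outside the interval, while for most names under 10 RPM it was not. Of the 184 names of at least 1000 RPM, 11 had an unadjusted p under 0.05, beside 41 of all 933 names (4.39%). All 11 were lower after enrichment, but they are not separate results. Among them are a precursor and a mature strand each of mir-148a, mir-98 and mir-487b, and mir-409a beside miR-409b.

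The miRNAs described next were the 10 lower and 10 higher names with the smallest p among those that averaged at least 10 RPM and had the same direction in all 4 combinations of sex and prenatal treatment. Their common direction in the 4 combinations was thus fixed by the choice and is given as a description. mir-148a had the smallest p of these. This hairpin lies at chr4:81664431-81664527 on the minus strand (GRCr8) outside any annotated gene, and miR-148a is known for the control of DNA methyltransferase and of genes of lipid metabolism. Enriched libraries ranged from 9670 to 15895 RPM of the precursor with a median of 12380 RPM, and non-enriched libraries from 11607 to 19215 RPM with a median of 15209 RPM. Of the 12 enriched libraries, 8 lay within the non-enriched range. The means were 12538 ± 2035 and 15223 ± 2326 RPM (SD, n = 12 and 12), a log2 change of −0.28 ± 0.10 (SE) with a 95% interval of −0.49 to −0.07 (limma, p = 0.0108, adjusted p = 1, exact permutation p = 0.00889). The estimates of the 4 combinations ran from −0.14 in ethanol females to −0.37 in ethanol males, and the unadjusted p stayed under 0.05 in all 24 fits that left out 1 library. The mature strands had estimates in the same direction but far lower levels, with means of 211 RPM for miR-148a-3p and 1322 RPM for miR-148a-5p beside 13880 RPM for the precursor. Most reads behind the precursor estimate were thus not counted under either strand, and the reason was not tested. miR-148a-3p averaged 194 ± 35.1 RPM in enriched and 228 ± 38.6 RPM in non-enriched libraries, a log2 change of −0.24 ± 0.10 (SE), and miR-148a-5p averaged 1225 ± 174 and 1420 ± 224 RPM, a change of −0.21 ± 0.10. The summed level of the 3 mature miRNAs that share the seed of miR-148a-3p changed by −0.04 ± 0.06 on the log2 scale (SE, limma, adjusted p = 0.957), with miR-148b-3p and miR-152-3p as the other members.

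miR-151-3p also had lower estimates. Its levels spanned 2694 to 4180 RPM in enriched libraries, with a median of 3685 RPM, and 3413 to 4832 RPM in non-enriched libraries, with a median of 4153 RPM. The ranges overlapped for 8 of the 12 enriched libraries. The log2 change was −0.19 ± 0.08 (SE, 95% interval −0.36 to −0.03; limma, p = 0.0228, adjusted p = 1, exact permutation p = 0.0224), with an unadjusted p under 0.05 in all 24 fits without 1 library. The other arm, miR-151-5p, averaged 497 ± 239 RPM in enriched and 551 ± 344 RPM in non-enriched libraries (SD, n = 12 and 12), and its SE of 0.40 was too wide to show a change of that size. The more abundant precursor mir-151 averaged 10529 ± 1095 and 11371 ± 881 RPM. Its change was smaller, at −0.11 ± 0.06 (SE, limma, p = 0.0622, exact permutation p = 0.0606).

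Several lower names came from a single imprinted region on chromosome 6. The miRNAs between mir-379 and mir-410 of the Dlk1-Dio3 domain are expressed from the maternal chromosome, and several act on dendrites and synapses. miR-409b ranged from 1414 to 2215 RPM in enriched libraries with a median of 1710 RPM, and from 1652 to 2324 RPM in non-enriched libraries with a median of 1951 RPM. Its log2 change was −0.20 ± 0.08 (SE, limma, p = 0.0172, adjusted p = 1, exact permutation p = 0.0178), and the p stayed under 0.05 in all 24 fits without 1 library. The precursors mir-409a and mir-409b had the same estimate, −0.16 ± 0.07, and stood in a nearly fixed proportion to each other in every library, so they are a single measurement. miR-487b-3p, from chr6:134562890-134562971, ranged from 1275 to 1959 RPM in enriched and from 1432 to 1942 RPM in non-enriched libraries, with medians of 1537 and 1700 RPM, and its log2 change was −0.15 ± 0.07 (SE, limma, p = 0.0345, adjusted p = 1, exact permutation p = 0.0332), with a p under 0.05 in 14 of the 24 fits without 1 library. These values do not describe the region as a whole. Of 90 names tested from miR-379 to miR-410, with miR-409a and miR-409b left out, 48 had an estimate above 0. Of the 90, 2 were higher and 4 were lower at an unadjusted p under 0.05 (beside 1.71% and 2.68% of all 933 names). The 4 include mir-487b and its strand miR-487b-3p, which are not separate. Of the higher names, miR-541-3p exceeded 3 reads in 1 library. The median change of the 90 names was 0.01, beside −0.01 over all names. miR-409a and miR-409b lie in the region but stood outside this list by the way they are named. Their names miR-409b, mir-409a and mir-409b would add to the lower ones, and miR-409a-5p changed by 0.18 ± 0.49 (SE). Without replicate 3 of the saline enriched females, 1 of the 90 names had an unadjusted p under 0.05. The 2 most abundant mature names of the region stood near 0, as miR-410-3p (12293 ± 1415 and 13004 ± 1090 RPM in enriched and non-enriched libraries, SD) changed by −0.08 and miR-541-5p (7913 ± 1430 and 7788 ± 1262 RPM) by 0.02 on the log2 scale.

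The strand of miR-409b was uncertain. In RefSeq the miR-409b sequence lies on the minus strand at chr6:134579229-134579251, and the 20 bases of miR-409a-3p on the plus strand are contained in its reverse complement. In 6 pairs of names that occupy one position on opposite strands, among them miR-3592 and miR-382-3p, both names had identical values in every library, so the values there do not separate the strands. The values under miR-409b may therefore stem from either strand. The same holds for miR-3592 and miR-382-3p, which are a single measurement although both names count among the 41, with 12.6 ± 3.24 RPM in enriched and 9.74 ± 2.81 RPM in non-enriched libraries and a log2 change of 0.34 ± 0.13 (SE, limma, p = 0.0168, adjusted p = 1, exact permutation p = 0.0418), above 0 in 3 of the 4 combinations.

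miR-98-5p, a member of the let-7 family that acts in differentiation and metabolism, had a small and narrow estimate. mir-98 lies within Huwe1 at chrX:24460648-24460755. miR-98-5p ranged from 2872 to 3662 RPM in enriched and from 3043 to 4271 RPM in non-enriched libraries, with medians of 3345 and 3611 RPM, and 10 of the 12 enriched libraries lay within the non-enriched range. The difference was −7.76% of the non-enriched mean, or −0.12 ± 0.05 on the log2 scale (SE, limma, p = 0.0308, adjusted p = 1, exact permutation p = 0.0224), with a p under 0.05 in 18 of the 24 fits without 1 library. let-7d-5p, which has the same seed, averaged 2095 ± 235 and 2324 ± 293 RPM (SD), a change of −0.15 ± 0.07. Of the 9 mature names with this seed, 7 had estimates below 0 and 2 above 0. Their summed level was 71294 ± 6890 RPM in enriched and 75260 ± 9544 RPM in non-enriched libraries, a log2 change of −0.07 ± 0.07 (SE, limma, adjusted p = 0.957, exact permutation p = 0.288).

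miR-101a-5p had the fewest reads of the 10 lower names described. This is the less used arm of a hairpin whose other arm, miR-101a-3p, is known to target the methyltransferase Ezh2. It ranged from 1.94 to 17.7 RPM in enriched and from 7.85 to 17.95 RPM in non-enriched libraries, that is, from 2 to 23 reads per library, with medians of 9.30 and 12.7 RPM. The log2 change was −0.51 ± 0.20 (SE, limma, p = 0.0218, adjusted p = 1, exact permutation p = 0.0199), with a p under 0.05 in all 24 fits without 1 library, of which the ethanol males gave −1.15 and the other 3 combinations between −0.41 and −0.22. miR-101a-3p averaged 321 ± 43.6 and 330 ± 33.1 RPM and changed by −0.05 ± 0.07.

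Among the 10 higher names chosen by the same rule, miR-540-5p had the smallest p. miR-540 is encoded in the same imprinted domain, upstream of the region from mir-379 to mir-410, at chr6:134321438-134321460 for the 5p strand. Levels of miR-540-5p ranged from 28.5 to 53.4 RPM in enriched libraries, with a median of 41.5 RPM, and from 19.5 to 54.2 RPM in non-enriched libraries, with a median of 35.4 RPM, so that all 12 enriched libraries lay within the non-enriched range. The log2 change was 0.25 ± 0.11 (SE, limma, p = 0.0399, adjusted p = 1, exact permutation p = 0.0303), with a p under 0.05 in 12 of the 24 fits without 1 library. The estimate of the other arm had the opposite direction. miR-540-3p averaged 164 ± 22.98 RPM in enriched and 190 ± 29.5 RPM in non-enriched libraries (SD), a log2 change of −0.21 ± 0.09 (limma, p = 0.0267, adjusted p = 1, exact permutation p = 0.02495).

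The balance of the 2 arms of miR-540 gave the smallest p among the ratios tested. A ratio within a library is not moved by the scaling of the library. The log2 ratio of 5p to 3p ranged from −2.39 to −1.43 in enriched libraries, with a median of −1.96, and from −3.18 to −1.81 in non-enriched libraries, with a median of −2.38. In the medians the 5p strand thus stood at 0.257 of the 3p strand after enrichment and at 0.193 without. The difference was 0.46 ± 0.13 on the log2 scale (SE, 95% interval 0.18 to 0.74; limma, p = 0.00253, adjusted p = 0.172 over 68 hairpins, exact permutation p = 0.0018). The mean ratio was higher after enrichment in all 4 combinations of sex and prenatal treatment, but in saline males the medians ran the other way, at −1.96 with and −1.86 without enrichment, and 1 non-enriched library at −3.14 set the difference of the means. Leaving out 1 library at a time gave differences between 0.35 and 0.52 and adjusted p between 0.056 and 0.394. Among the 68 hairpins, 2 had an unadjusted p under 0.05 (2.94%), and the other was miR-101a with −0.47 ± 0.19. miR-542 followed with −0.36 ± 0.18 (limma, adjusted p = 0.855, exact permutation p = 0.0922).

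The members of the mir-23a, mir-27a and mir-24-2 cluster on chromosome 19 that are given here had estimates above 0. mir-27a and mir-23a lie next to each other on the minus strand outside annotated genes, and the cluster is known from blood vessels, immune cells and cell growth. mir-27a, at chr19:40859603-40859689, ranged from 262 to 416 RPM in enriched libraries with a median of 300.5 RPM and from 212 to 310 RPM in non-enriched libraries with a median of 281 RPM. The change was 0.15 ± 0.07 on the log2 scale (SE, limma, p = 0.0417, adjusted p = 1, exact permutation p = 0.032), the p was under 0.05 in 11 of the 24 fits without 1 library, and 7 of the 12 enriched libraries lay within the non-enriched range. miR-27a-3p changed by 0.13 ± 0.08, mir-23a by 0.12 ± 0.08, miR-23a-3p by 0.12 ± 0.08, mir-24-2 by 0.11 ± 0.11 and miR-24-2-5p by 0.10 ± 0.08. miR-27b-3p, which shares the seed of miR-27a-3p and was far more abundant at 29169 RPM, changed by 0.05, and the summed level of the pair by 0.05 ± 0.04 (SE, limma, adjusted p = 0.957).

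The rest of the 10 higher names came from miR-31a, miR-490, miR-873, miR-140 and miR-1224, and those had an unadjusted p above 0.05. mir-31a, known from bone, muscle and tumor cells, averaged 88.5 ± 21.3 RPM in enriched and 73.6 ± 12.9 RPM in non-enriched libraries (SD, n = 12 and 12), a log2 change of 0.25 ± 0.12 (SE, limma, p = 0.0531, adjusted p = 1). mir-490 lies within Chrm2, the gene of a muscarinic acetylcholine receptor, at chr4:66014586-66014669. It averaged 288 ± 81.3 and 229 ± 63.6 RPM, a change of 0.32 ± 0.17, and its 3p strand 20.6 ± 10.1 and 12.9 ± 5.49 RPM, a change of 0.62 ± 0.29. Its 5p strand, of similar level, averaged 18.1 ± 6.66 and 16.1 ± 6.35 RPM, a smaller change of 0.14 ± 0.23. mir-873 lies within Lingo2, which encodes a neuronal membrane protein, and its strand miR-873-3p averaged 123 ± 17.95 and 108 ± 23.5 RPM, a change of 0.21 ± 0.12. The precursor itself, which did not have the same direction in all 4 combinations, averaged 876 ± 73.8 and 802 ± 97.5 RPM, a change of 0.13 ± 0.06 (SE, limma, p = 0.0373, adjusted p = 1, exact permutation p = 0.0496). miR-140-5p, from an intron of Wwp2 and best known from cartilage, averaged 16.9 ± 4.16 and 14.1 ± 3.41 RPM, a change of 0.23 ± 0.14. The other forms of this hairpin did not share that estimate. The precursor mir-140 averaged 871 ± 103 and 861 ± 117 RPM, a change of 0.02 ± 0.08. miR-140-3p averaged 7.08 ± 3.15 and 8.03 ± 3.47 RPM, a change of −0.17 ± 0.24. mir-1224, within Vwa5b2, averaged 80.5 ± 25.3 and 65.1 ± 11.8 RPM, a change of 0.26 ± 0.16. The ranges of the 2 housings overlapped for each of these.

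**Figure D2:**
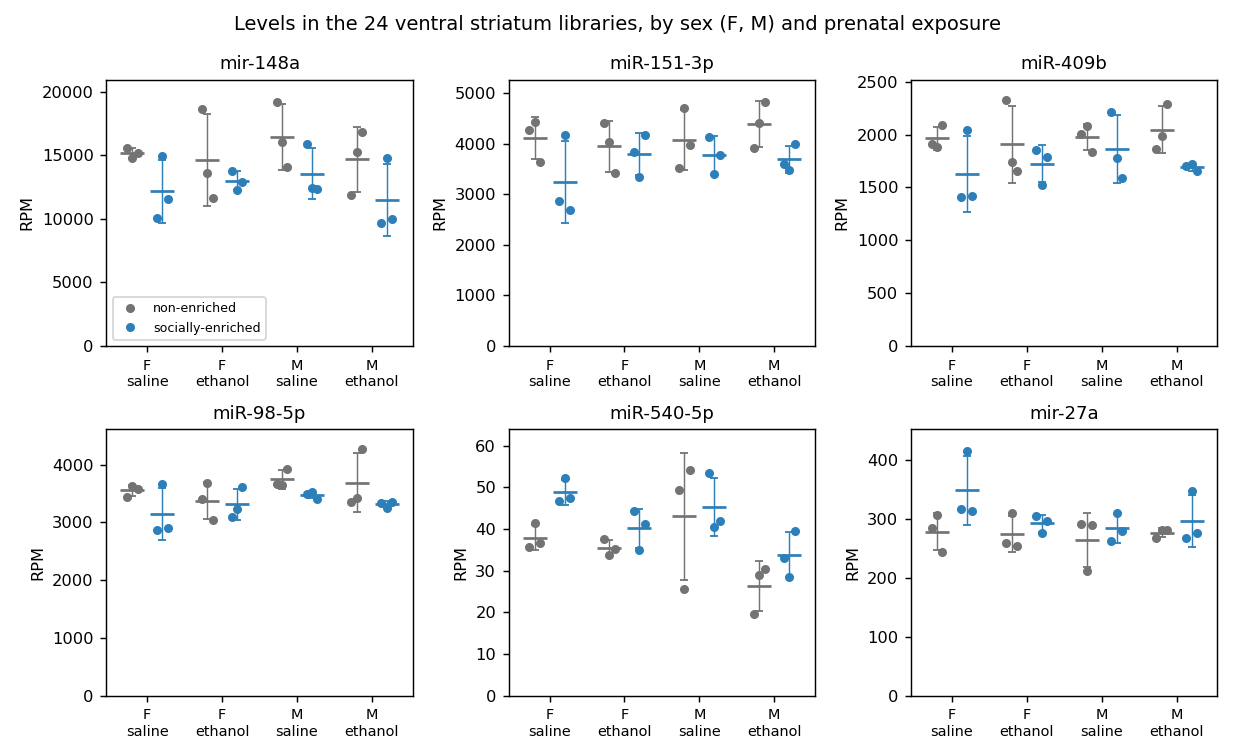
RPM of mir-148a, miR-151-3p, miR-409b, miR-98-5p, miR-540-5p and mir-27a in each of the 24 ventral striatum libraries (points), by sex (F, M) and prenatal treatment, with the mean (horizontal line) and SD (bars) of the 3 libraries of a group. The socially enriched mean lies below the non-enriched mean for the first 4 miRNAs and above it for the last 2 in all 4 combinations, as the choice of these miRNAs required, and single libraries of the housings overlap in most of them.

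The same contrast in the amygdala served to show whether these estimates were particular to the ventral striatum. Of 942 names tested in a fit to all 48 libraries, 24 (2.55%) had an unadjusted p under 0.05 for the difference between the regions. After Benjamini-Hochberg adjustment 0 had a p under 0.05 (limma, smallest adjusted p 0.557). Both regions came from the same rats, and this fit treats the libraries as independent. With consecutive library numbers as a random block, 28 names had an unadjusted and 0 an adjusted p under 0.05 (limma). In the amygdala mir-148a averaged 9723 ± 1225 RPM in enriched and 9875 ± 1202 RPM in non-enriched libraries, a change of −0.02 ± 0.08, which differed from that in the ventral striatum by −0.26 ± 0.12 (SE, limma, adjusted p = 1). miR-98-5p changed by 0.04 ± 0.05 in the amygdala and differed by −0.16 ± 0.07 (limma, adjusted p = 1). The 3 names of at least 10 RPM with the smallest p were mir-203a, miR-874-3p and mir-187. mir-187 ranged from 48.1 to 326 RPM in enriched and from 98.4 to 275 RPM in non-enriched ventral striatum libraries, with medians of 116 and 194 RPM, and changed by −0.58 in the ventral striatum and by 0.11 in the amygdala, a difference of −0.69 ± 0.29 (SE, limma, adjusted p = 1). miR-874-3p changed by −0.16 and 0.36 in the same order, a difference of −0.52 ± 0.21, and mir-203a, a skin miRNA, by 0.11 and −0.36, a difference of 0.47 ± 0.18. After adjustment none of these estimates was shown to be particular to the ventral striatum.

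**Figure D3:**
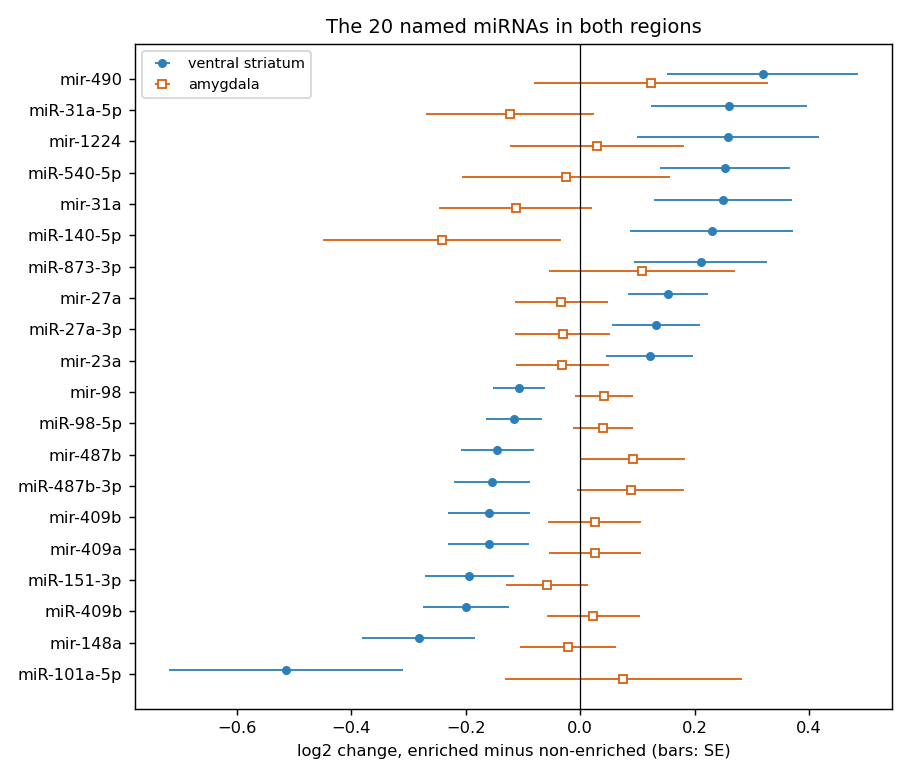
Log2 changes (enriched minus non-enriched) of the 20 miRNAs named for the ventral striatum, with SE bars, in the ventral striatum (filled circles) and in the amygdala (open squares). The miRNAs were chosen on the ventral striatum values, so only the amygdala points are free of that choice, and these lie between −0.24 and 0.12.

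The enrichment effect was next compared between the prenatal groups that the contrast averages. The difference between ethanol and saline rats had an unadjusted p under 0.05 in 24 of 933 names (2.57%) and an adjusted p under 0.05 in 0 (limma with Benjamini-Hochberg adjustment, smallest adjusted p 1). Within the prenatal groups, 36 names (3.86%) in saline rats and 17 (1.82%) in ethanol rats had an unadjusted p under 0.05. The largest difference among the named miRNAs was that of mir-183, a miRNA of sensory and epithelial cells. It belongs to a group, described below, whose sum was highest in replicate 3 of the ethanol enriched females. In saline rats the 6 enriched libraries held 2.34 to 9.96 RPM of mir-183 and the 6 non-enriched libraries 2.38 to 28.1 RPM. In ethanol rats the enriched libraries held 2.84 to 73.1 RPM of it and the non-enriched libraries 2.33 to 18.5 RPM. The change was −1.05 ± 0.77 in saline and 1.38 ± 0.77 in ethanol rats (SE), a difference of 2.43 ± 1.09 (limma, adjusted p = 1). miR-3592 (or miR-382-3p) changed by 0.63 ± 0.18 in saline and 0.05 ± 0.18 in ethanol rats, and mir-877, from an intron of Abcf1, by −0.28 ± 0.15 and 0.21 ± 0.15.

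Estimates in saline and ethanol rats rest on separate libraries. Across the 933 names they had Pearson's r of −0.09 and Spearman's rho of 0.14, and 524 (56.2%) had the same sign; names are not independent replicates, and no test was made. Of the 36 names with an unadjusted p under 0.05 in saline rats, 25 had the same sign in ethanol rats. Of the 17 in ethanol rats, 9 had the same sign in saline rats. The lists of miRNAs that the study selected for an enrichment effect were followed in the same way, in the prenatal group that was not used to select them. The study selected them at uncorrected p-values. Of 19 listed for control rats and tested here, 13 had the same sign in ethanol rats and 0 had an unadjusted p under 0.05 there. Of 19 listed for ethanol rats and tested here, 6 had the same sign in saline rats and 1 had an unadjusted p under 0.05. The list for ethanol rats holds several names of the mir-8 and mir-183 families, among them miR-141-3p, miR-182, miR-200a-3p, miR-200b-3p and mir-183. These are not separate results. The summed level of those families was highest in replicate 3 of the ethanol enriched females (2969 RPM, beside a median of 247 RPM in enriched libraries). How far that library sets these counts was not tested. The median change in the other group, counted in the listed direction, was 0.05 for the first and −0.19 for the second list, beside medians of 0.54 and 0.91 in the group of selection, where the size follows from the selection.

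The effect was compared between females and males in the same way. The difference between the sexes had an unadjusted p under 0.05 in 12 of 933 names (1.29%) and an adjusted p under 0.05 in 0 (limma with Benjamini-Hochberg adjustment, smallest adjusted p 0.508). mir-299a changed by 0.12 ± 0.18 in females and −0.51 ± 0.18 in males, miR-3068-5p by 0.23 ± 0.12 and −0.14 ± 0.12, and miR-873-5p by −0.04 ± 0.09 and 0.24 ± 0.09 (SE), each with an adjusted p of 1. Within the sexes, 31 names (3.32%) in females and 24 (2.57%) in males had an unadjusted p under 0.05. The estimates of the sexes, which rest on separate libraries, had Pearson's r of 0.08 and Spearman's rho of 0.12 across names, and 517 (55.4%) had the same sign.

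Groups of miRNAs with known roles were described by counts and medians. Of 26 names tested from miRNAs controlled by neuronal activity or active at synapses, 0 had an unadjusted p under 0.05 in either direction and the median change was −0.04, beside −0.01 over all names. miR-132-3p, which CREB induces and which promotes dendrite growth, averaged 2281 ± 740 RPM in enriched and 2572 ± 725 RPM in non-enriched libraries (SD), a change of −0.20 with a 95% interval up to 0.21. miR-212-5p (1180 ± 421 and 1309 ± 322 RPM) changed by −0.19, miR-138-5p (1076 ± 252 and 1077 ± 158 RPM), which limits the size of dendritic spines, by −0.02, and miR-212-3p by −0.08. Of 25 names of miRNAs abundant in neurons, 0 had an unadjusted p under 0.05 and the median was −0.06, with miR-9a-5p at −0.06, miR-153-3p at −0.18, miR-128-3p at −0.02 and miR-124-3p at 0.08. Of 14 names of the miR-181 family, 0 had an unadjusted p under 0.05, and miR-181a-5p, at 173913 ± 27739 and 169270 ± 14824 RPM, changed by 0.03. In the let-7 family 1 of 33 names was higher and 4 were lower at an unadjusted p under 0.05, beside 1.71% and 2.68% of all names. The 4 include mir-98 and its strand miR-98-5p, which are not separate, and let-7c-1-3p, which exceeded 3 reads in 6 of the 24 libraries. The higher name, miR-98-3p, did not exceed 3 reads in any library. Of the 33 estimates 11 were above 0 and the median was −0.07, with let-7f-5p at −0.13, let-7g-5p at −0.03, let-7i-5p at −0.08 and let-7c-5p at 0.02. Without replicate 3 of the ethanol non-enriched males, 1 of the 33 names had an unadjusted p under 0.05 and the median was −0.03.

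Markers of cells other than neurons were examined for differences in the makeup of the pools. In bulk tissue fewer cells of a type and less RNA per cell cannot be told apart. In the marker lists here and below, strands and precursors of the same hairpin count as separate names. A common sign within a list is therefore not separate evidence from each name, and the signs were not tested. The median change over all tested names was −0.01. Of 17 names of miRNAs of endothelial, smooth muscle and mesenchymal cells, 17 had estimates above 0, with a median of 0.24 and a range of 0.03 to 0.55, and 0 had an unadjusted p under 0.05. Their summed mature level was 26576 to 68624 RPM in enriched and 27594 to 36702 RPM in non-enriched libraries, with medians of 34788 and 32536 RPM. The highest value came from replicate 3 of the saline enriched females, and without it the median was 0.16, with 17 of 17 above 0. miR-143-3p, the smooth muscle miRNA that makes up most of this sum, averaged 33448 ± 10767 and 27820 ± 2957 RPM (SD), a change of 0.22 ± 0.12 (limma, adjusted p = 1, exact permutation p = 0.0757), while the endothelial miR-126a-3p averaged 432 ± 63.3 and 422 ± 35.8 RPM, a change of 0.03. The positive estimates of the mir-23a cluster stood beside these values, whose part in them was not tested.

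Of 9 names of miRNAs of ciliated ependymal cells, 9 had estimates below 0, with a median of −0.59 and 0 with an unadjusted p under 0.05. miR-34c-5p averaged 977 ± 969 and 1495 ± 1609 RPM (SD), so the spread between libraries exceeded the difference. Without replicate 1 of the saline non-enriched males, which held the highest sum of 5745 RPM, the median was −0.28 and 1 of 9 was above 0. For the mir-8 and mir-183 families, which mark epithelial cells, the median of 15 names was 0.25, and without replicate 3 of the ethanol enriched females it was 0.00. Their sums ran from 110 to 2969 RPM in enriched and from 104 to 1414 RPM in non-enriched libraries, with medians of 247 and 259 RPM. miR-182, miR-141-3p, miR-200a-3p and miR-429 of this group had SDs as large as or near their means.

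The remaining marker groups were those of immune cells, oligodendrocytes, choroid plexus, blood and muscle. miRNAs of microglia and immune cells had estimates above 0 in 15 of 16 names with a median of 0.08, and miR-146b-5p averaged 24066 ± 3928 and 22413 ± 4105 RPM (SD). Those of oligodendrocytes had a median of 0.07, with miR-338-3p at 9456 ± 2926 and 8559 ± 2154 RPM, and those of choroid plexus a median of −0.03, with miR-204-5p at 5417 ± 1048 and 5803 ± 799 RPM. Red blood cell miRNAs summed to between 14.8 and 53.0 RPM in every library and had a median of 0.12, and muscle miRNAs a median of 0.21. None of the names of these groups had an unadjusted p under 0.05 except miR-133a-3p, a miRNA of striated muscle, at 7.63 ± 3.72 and 4.24 ± 3.19 RPM, a change of 0.90 ± 0.37 (SE, limma, p = 0.0252, adjusted p = 1, exact permutation p = 0.0345).

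**Figure D4:**
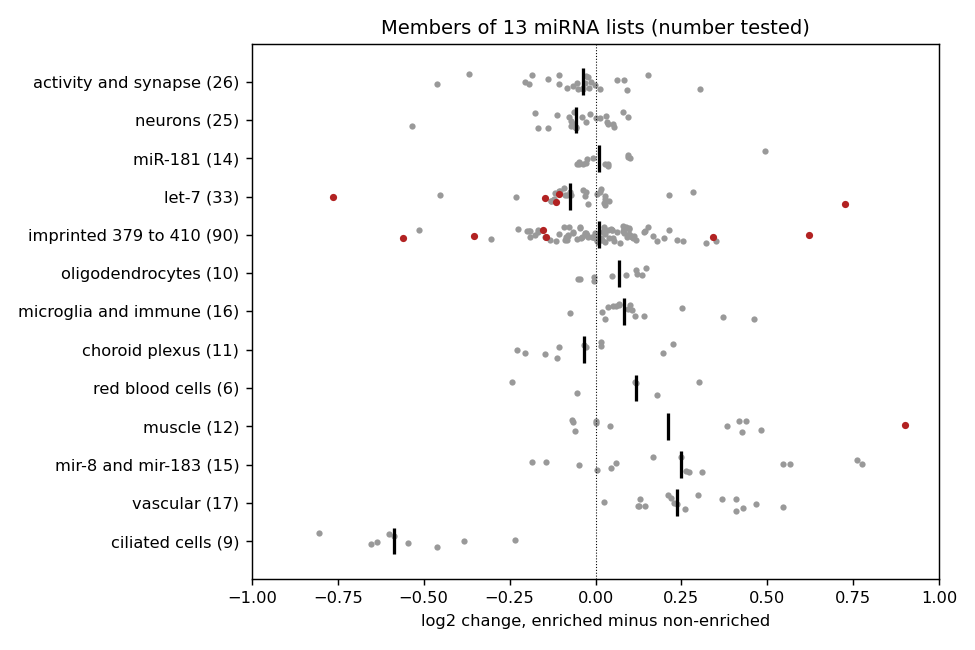
Log2 changes (enriched minus non-enriched) of the tested members of 13 miRNA lists, with the number tested in parentheses. Points are names, red where the unadjusted p was under 0.05, and the black bar is the median of the list, which is lowest for ciliated cells at −0.59 and lies between −0.07 and 0.25 for the other lists.

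Many of the smallest p-values belonged to rare names. Of the 41 names, 18 averaged under 10 RPM, and the smallest p of all came from miR-98-3p (limma, p = 0.00265, adjusted p = 1, exact permutation p = 0.00675), whose levels of 0 to 2.53 RPM in enriched and 0 to 1.09 RPM in non-enriched libraries did not exceed 3 reads in any library. No fold is given for it. Totals by seed, which add up miRNAs that share targets, had an unadjusted p under 0.05 in 20 of 392 seeds (5.1%) and an adjusted p under 0.05 in 0 (limma with Benjamini-Hochberg adjustment, smallest adjusted p 0.921). The 3 totals with the smallest p each had a single member, which were miR-466b-5p at no more than 3 reads in any library, miR-27a-5p at 1.94 ± 2.09 and 0.689 ± 0.660 RPM, and miR-409b as described above.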

How the data were processed

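Small RNA of 48 pools was sequenced as single-end reads, and the 24 ventral striatum libraries are compared here. Per the file headers and the methods, the authors trimmed reads by quality, aligned them with Bowtie to Rn5, quantified them in Partek Flow against miRBase and deposited a normalized signal per name, called RPM. In that signal the mature and the precursor names each add up to the same total in every library. The tests were designed for RPM and needed no change. Versions of Bowtie and Partek are not given in the sources used here. Libraries were multiplexed in sets that the labels do not give, so no batch could be tested. Reads that match several names were divided into fractions, so a count test was not used. The 122 lines that shared 56 names were added up. Reads stem from PCR products, so read floors cover counting error only.

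Names above 0 RPM in at least 6 of 24 libraries entered a linear model of log2(RPM + 1) with 8 cells of sex, prenatal treatment and housing, fitted by limma 3.58.1 in R 4.3.3 with an intensity trend in eBayes. Such fold changes understate the change of rare names. All tests were two-sided, and the adjustment for the number of names was that of Benjamini and Hochberg. Exact permutation tests were run in Python 3.11.15 with numpy 2.4.6, and the fits were tested on simulated data. Named miRNAs were the 10 higher and 10 lower names with the smallest p among those of at least 10 RPM with one direction in the 4 combinations of sex and prenatal treatment, the 3 with the smallest p of each interaction, seed total and arm ratio, and up to 4 most abundant of each list. let-7d-5p, miR-98-3p, miR-133a-3p and the other strands or neighbors of named hairpins were chosen after their values were seen. Members and lists were chosen with earlier results of these data known. Replicate numbers were not used to pair the libraries in the main fit. Deviations from the group means were correlated between same-numbered enriched and non-enriched libraries. The median correlation was −0.04, with a range of −0.26 to 0.34, and 5 of 12 pairs were over 0.1. These values do not decide whether the numbers mark pairs. Alternatives were other pseudocounts, filters, scalings, models and subsets, and each library left out in turn. The exact permutation test of every name was added after the data were seen.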

Additional observations from a re-analysis of the deposited data

Results flagged for a closer look

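Levels of the 20 miRNAs named for the main effect were examined for single distant libraries in the groups of 6 libraries with one prenatal treatment and one housing. A library was singled out where its gap to the nearest other library was a large part of the whole range by Dixon's test. Chance gives about 1 in 20 groups, and 6 of 80 groups were singled out.

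In saline enriched rats, replicate 2 of the females had 415.9 RPM of mir-27a, beside 316 RPM in the next library, and 482.8 RPM of miR-27a-3p, beside 352 RPM. The same reads are counted in both. In ethanol enriched rats, replicate 1 of the females had 119.4 RPM of mir-31a, beside 89.9 RPM, and replicate 3 of the females had 524.7 RPM of mir-23a, beside 446 RPM. In ethanol non-enriched rats, replicate 3 of the females had 85.5 RPM of mir-1224, beside 70.3 RPM. In saline non-enriched rats, replicate 3 of the males had 3368 RPM of mir-98, beside 3097 RPM.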

How the results depend on the processing

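The count of 41 names at an unadjusted p under 0.05 stayed within 1.5 times under pseudocounts of 0.1 and 10, without a filter, with median-ratio rescaling (17 of 41 higher), with mature names only, without moderation, in an additive model, in a fit to 48 libraries, in females only and by the exact permutation test (39). It was 38 with the replicate block, which left the count at an adjusted p under 0.05 at 0. It was 17 of 596 names of at least 10 RPM, 18 of 869 in males only, 26 of 870 in saline rats only and 13 of 873 in ethanol rats only. Leaving out 1 library gave 23 to 65 names, lowest without replicate 1 of the ethanol non-enriched females and highest without replicate 1 of the saline enriched males.

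The count at an adjusted p under 0.05 was 0 under each of these, except that leaving out 1 library gave 0 to 1. The 1 name, without replicate 3 of the ethanol enriched males, was miR-191b, at no more than 3 reads in any library. With a mean of at least 10 RPM, the count at an unadjusted p under 0.05 was 12 for the difference between prenatal groups and 1 for that between sexes. The arm ratios gave 1 with a pseudocount of 10 RPM. Leaving out 1 library gave 11 to 38 for prenatal groups, 9 to 29 for sexes, 11 to 25 for seeds and 1 to 5 for arms, with 0 to 1 adjusted calls for the first 3 and 0 for arms. Each single name so called exceeded 3 reads in at most 3 libraries.

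None of the 20 named main effects passed the adjusted threshold in any of 770 refits. Their direction did not turn, which the choice of names with one direction in all 4 combinations fixed for the refits within a sex or a prenatal group. Depth limits the rare names, whose intervals are given above.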
